A study of Mus musculus with 4 samples.

Results

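Very high coverage CpG cytosines are the autosomal CpG cytosines that were read at least 300 times in the liver DNA of each of 4 mice, outside 1 ribosomal RNA repeat copy on chromosome 17. They numbered 298 of 1253673 autosomal cytosines measured in all 4 mice, and 450 further cytosines reached the same depth inside the ribosomal copy that was left out (from chr17:39843014 to chr17:39848799). Members were chosen by coverage alone, so their coverage and its ratios between strains are given here as a description with no test, while their methylation was not used in the choice. A cytosine and its strand, not a CpG pair, was the unit. The name "repeat-derived" held for most but not all of them in the reference genome. Soft masking, which marks known repeats, covered 97 members, and 173 had at least 1 further copy of their surroundings in the assembly. By contrast 62 members in 10 clusters were unmasked, had no further copy at a looser match and were not joined to the ribosomal copy.

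Enhanced reduced representation bisulfite sequencing (ERRBS), as the labels describe these libraries, cuts DNA with MspI at CCGG, sequences the ends of the fragments after bisulfite treatment, and reads a methylated cytosine as C and an unmethylated one as T. The study also names TaqαI as a second enzyme of the method in general, and its cutting sites were not searched for here. Whole liver was taken from 4 male mice on a normal diet, aged 6 to 8 weeks. Mixed-1 and Mixed-2 were of an undefined mixed background that included C57BL/6J, and B6-1 and B6-2 were C57BL/6 (Black-6) mice from another institution, so strain, housing and sequencing depth cannot be told apart. None of the groups carried a transgene or a treatment in the labels, and 5-methylcytosine and 5-hydroxymethylcytosine were read as one. Where 4 values follow each other below, they belong to the Mixed mice and then to the B6 mice, each pair in the order of its numbers.

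Repeated sequences fill much of a mammalian genome. Transposed elements are present in many scattered copies that are usually heavily methylated, satellite DNA lies in long arrays near centromeres, and the genes for ribosomal RNA stand in tandem arrays of which some copies are active and unmethylated and others are silent and methylated. An assembly holds only a part of these copies. When reads from many copies are placed on the few that are in the reference, the depth there rises, and the methylation percentage becomes a mean over the copies. In whole tissue, a share of copies and a share of cells cannot be told apart.

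The 298 members lay in 53 clusters on 18 autosomes, with none on chromosome 7, when cytosines at most 1000 bp apart were chained. The sequences that follow surround the most deeply read cytosine of the clusters with the greatest coverage and of those with the greatest coverage ratio between strains, because these carry the patterns described below. Coordinates are those of GRCm38 (mm10), each run is 5′ to 3′ on the strand given, and the capitals mark the CpG whose cytosine was measured.
chr2:98666454-98666554, - strand, chromosome 2 array: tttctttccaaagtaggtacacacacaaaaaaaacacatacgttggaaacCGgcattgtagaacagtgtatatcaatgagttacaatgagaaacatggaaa
chr2:149489770-149489870, - strand, near Cst10, many copies: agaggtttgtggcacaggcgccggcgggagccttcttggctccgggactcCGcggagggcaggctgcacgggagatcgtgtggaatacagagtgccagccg
chr4:88376298-88376398, + strand, in Focad, many copies: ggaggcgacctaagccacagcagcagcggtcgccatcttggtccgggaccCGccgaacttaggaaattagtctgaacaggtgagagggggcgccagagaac
chr10:35351176-35351276, - strand, near Gm18729, many copies: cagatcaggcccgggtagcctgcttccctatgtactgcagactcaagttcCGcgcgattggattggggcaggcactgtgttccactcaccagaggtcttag
chr11:109011649-109011749, - strand, in Gm36876, linked: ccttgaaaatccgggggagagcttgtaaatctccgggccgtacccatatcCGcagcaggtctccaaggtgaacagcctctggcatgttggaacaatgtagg
chr13:6884160-6884260, - strand, near Gm40662, many copies: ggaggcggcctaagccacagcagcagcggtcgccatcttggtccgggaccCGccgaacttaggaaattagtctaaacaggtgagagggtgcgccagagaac
chr13:44869599-44869699, + strand, in Jarid2, linked: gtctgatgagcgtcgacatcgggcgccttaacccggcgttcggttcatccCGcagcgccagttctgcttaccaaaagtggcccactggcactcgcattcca
chr16:11144056-11144156, - strand, in Zc3h7a, linked: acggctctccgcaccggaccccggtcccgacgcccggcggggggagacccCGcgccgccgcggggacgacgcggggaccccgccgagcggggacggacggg
chr16:91534623-91534723, + strand, near Gm7860, low: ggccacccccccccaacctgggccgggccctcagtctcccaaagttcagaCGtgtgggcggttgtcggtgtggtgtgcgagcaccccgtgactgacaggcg
chr17:3084081-3084181, + strand, at Pisd-ps2: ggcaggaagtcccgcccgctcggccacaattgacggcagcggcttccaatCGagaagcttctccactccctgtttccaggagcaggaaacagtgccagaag
The windows at chr4:88376348 in Focad and at chr13:6884210 near Gm40662 lie on different chromosomes, yet 98 of their 101 bases were alike. The window in the chromosome 2 array held 2 CpGs and 1 MspI site (CCGG, which reads the same on both strands), whereas the window in Zc3h7a on chromosome 16 held 21 CpGs and 3 such sites.

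Members made up 0.0238% of the autosomal cytosines common to the 4 mice but 1.34%, 1.25%, 1.34% and 1.22% of the reads. Their median coverage was 1184 and 1048.5 reads in the Mixed mice and 1958.5 and 1816 reads in the B6 mice, against medians of 41, 45, 65 and 61 reads over all autosomal common cytosines. The extreme was chr2:98666504 on the − strand, with 30960, 28374, 226138 and 173448 reads. Total reads over the deposited sites ran from 60654199 in Mixed-1 to 99215153 in B6-1. At such depths counting error is small, and the spread between mice sets the precision. Counting error does not cover PCR duplicates, since ERRBS reads carry no molecular identifiers.

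At the edge of the rule, chr6:116578907, chr12:20234105 and chr10:35351226 were the members with the lowest minimum, at 300, 301 and 303 reads in their shallowest mouse. The nearest cytosines outside it were chr6:129940506, chr10:81178740 and chr4:147124819, at 298, 297 and 296 reads. Of these outsiders, the first had a methylation of 14.1%, 12.7%, 13.8% and 19.1%, and the last lay beside a cluster of members.

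Most clusters were short. Their median span was 45.5 bp where they had 2 or more members, 43 of 53 spanned at most 50 bp, and the longest reached 906 bp. The 5 largest clusters held 110 members (36.9%), and chromosomes 11 and 16 alone held 76 and 48. Members within 50 bases of an MspI end numbered 268 (89.9%), against 98.9% of all autosomal common cytosines. The members fell into 76 strand-specific runs that share the nearest MspI site. Runs were formed at any distance, so members beyond 50 bases were not read from that site. In the 63 runs with 2 or more members the deepest cytosine had a median of only 1.02 times the reads of the shallowest. Neighbouring members were thus read largely by the same reads and are not independent of each other.

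A smaller share of the members than of all sites lay in promoters, and a larger share between genes. Promoters (1000 bp on each side of a transcript start) held 67 members (22.5%) against 60.0% of all autosomal common cytosines, exons 2 (0.671%) against 11.0%, introns 123 (41.3%) against 15.3% and intergenic sequence 106 (35.6%) against 13.7%. CpG islands, called with soft-masked bases hidden, held 138 (46.3%) against 57.7%. Soft-masked bases held 32.6% of members against 7.65% of all, so the masking bears more on the island share of the members. The edges of the assembled sequence were also frequent, since 61 members (20.5%) in 11 clusters lay within 300000 bp of an assembly gap, against 3.43% of all sites. Of these, 48 members in 6 clusters stood within 300000 bp of the first sequenced base of their chromosome, next to the unassembled centromere. The cluster at chr11:3193348 alone held 31 of the members in each of these counts.

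Copies were counted by aligning the 101 bases around each member to the assembly. At 90% identity over 90% of the window 173 members (58.1%) had a further copy, and at 98% over 98% 97 members (32.6%) had one. At 80% over 80% 207 members had a copy, 84 had 1000 or more, and the highest count was 78963. The clusters fell into 5 kinds on these grounds. There were 93 members in 9 clusters joined to the ribosomal copy, directly or through another cluster, by matches begun in unmasked sequence. Another 82 members in 20 clusters had a median of 1000 or more copies, and 9 members lay in 2 clusters of an array on chromosome 2. A further 42 members were in 7 other clusters with a mean methylation below 20%, and 72 members were in the 15 remaining clusters. The cluster at chr3:47118495 is counted with the 1000-copy kind, although the windows of both its members, which had a median of 77945 copies, also matched a stretch inside the left-out ribosomal interval. The fourth kind was set by methylation itself, so its low level is a description. So is the lack of means below 20% among the 15 remaining clusters.

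**Figure D1:**
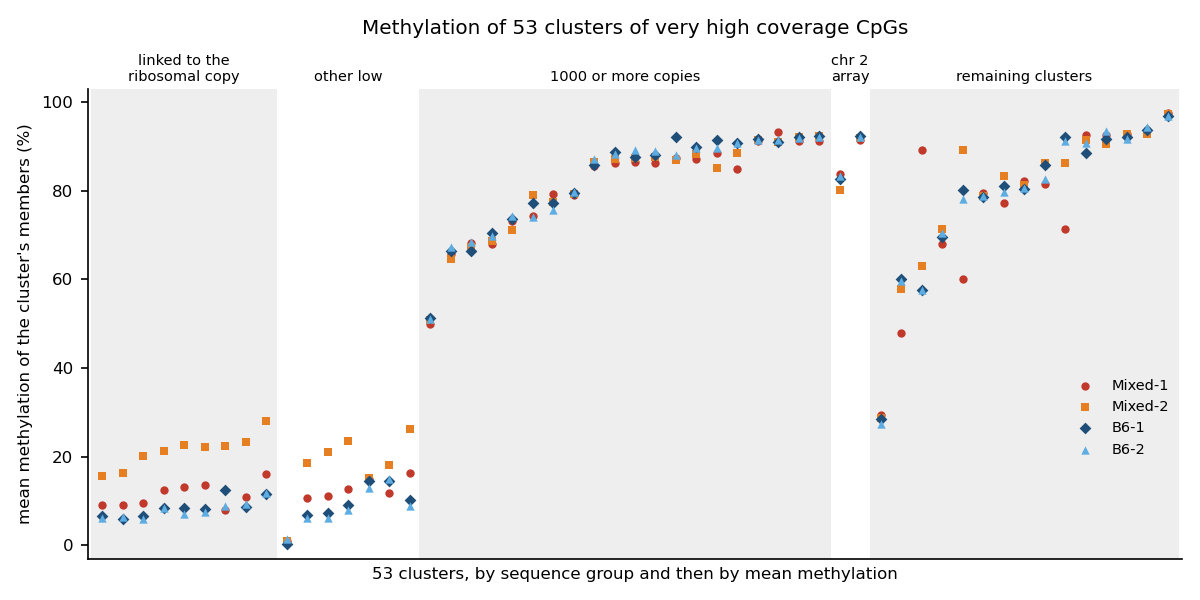
Mean methylation in percent of the members of each of the 53 clusters (y axis), 1 point per mouse, with clusters ordered along the x axis by kind and then by mean. The clusters linked to the ribosomal copy lie between 5.85% and 28.0% with Mixed-2 at the top of each, and those with 1000 or more copies lie between 49.9% and 93.2% with the 4 mice close together.

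Methylation classes had another balance among the members than among all autosomal common cytosines. Hypomethylated members (under 20%) numbered 140 (47.0%), 72 (24.2%), 144 (48.3%) and 145 (48.7%), while 65.3% to 65.5% of all autosomal common cytosines were hypomethylated. Hypermethylated members (over 80%) numbered 115, 124, 128 and 122, or 38.6% to 43.0%, against 22.1% to 22.9% of all. Intermediate members numbered 43, 102, 26 and 31. Mixed-2 stood apart with 34.2% intermediate members, more than its hypomethylated ones, while the other mice had 14.4%, 8.72% and 10.4%, and no such gap was seen over all sites, where the intermediate share was 11.8% to 12.4%.

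**Figure D2:**
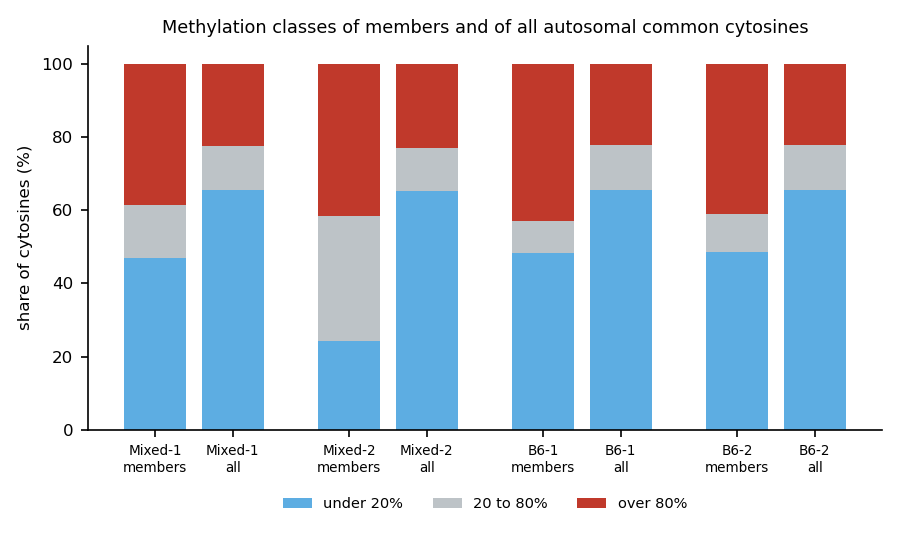
Share in percent (y axis, stacked to 100) of cytosines under 20%, from 20 to 80% and over 80% methylated, for the 298 members and for all autosomal common cytosines in each mouse (x axis). The members have more hypermethylated cytosines than all sites in every mouse, and Mixed-2 has the most intermediate members, at 34.2%.

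Mean methylation of the members was 48.8%, 53.1%, 47.8% and 47.1%. It exceeded that of the other autosomal common cytosines in all 4 mice, by 20.4, 24.5, 19.5 and 18.8 points, with a mean of 20.8 points. The two-sided exact sign-flip permutation test over the 4 mice gave p = 0.125, the smallest value it can give. The strain difference was 3.50 points, with means of 50.9% in Mixed and 47.4% in B6 mice. A two-sided exact permutation of the strain labels returned p = 0.333, and with 2 mice a strain no smaller p can be had. The sign of this difference hung on weighting, since pooling all reads of the members gave 31.6% in Mixed and 36.4% in B6 mice, a difference of -4.78 points (exact permutation p = 0.333). In that pooling chr2:98666504 alone gave 226138 of 1208987 and 173448 of 1031298 reads in the B6 mice. In the Mixed mice it gave 30960 of 781475 and 28374 of 792717, and its methylation was 93.4% to 95.6% over all mice. A pooled value without this cytosine was not computed. With each cluster counted as 1 value the strain difference was 1.67 points (exact permutation p = 0.667).

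No member was called strain-variable. The logistic model with limma's moderated overdispersion called a cytosine at an adjusted p under 0.01 and a gap of at least 25 points between strain means, and it called 0 of 298 members and 93 of 1253673 autosomal common cytosines (0.00742%). At an unadjusted p under 0.05 it gave 19 members (6.38%), against 2.02% of all sites. The fit with the replicate number as a block called 0 members and 0 of all sites, and at an unadjusted p under 0.05 it gave 11 members (3.69%) against 2.01% of all. Limma on log ratios of reads also called 0 of both, with 64 members (21.5%) against 14.7% of all at the unadjusted threshold. Without the coverage trend in the overdispersion, an alternative added after seeing the data, 0 members were called against 0.0059% of all sites. That fit gave 148 members (49.7%) at an unadjusted p under 0.05, against 2.04% of all. It gave 37 at an adjusted p under 0.01, each with a gap under 25 points, and no share of all sites is given beside these. Fisher's exact test on pooled reads, which takes no account of the spread between mice, called 1 member (0.336%), at chr12:20234124, against 0.127% of all sites. Gaps of 10 points or more, in either direction, occurred in 39 members (13.1%), against 6.34% of all sites.

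Both Mixed mice lay above both B6 mice in 142 members (47.7%), against 8.96% of all autosomal common cytosines, and below both in 39 members (13.1%), against 7.63%. Members were read far more deeply than other sites and were in runs that share reads, and the part of either in these counts was not tested. In 121 of the 142, the order was Mixed-2 above Mixed-1 above both B6 mice.

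The clusters linked to the ribosomal copy gave most of this order. Ribosomal RNA genes encode the 18S, 5.8S and 28S RNA of the ribosome from a long repeated unit. A cluster at chr9:3260368 to chr9:3260398, 260367 bp from the first sequenced base of its chromosome, matched the left-out copy on chromosome 17 over 909 bases at 76.7% identity, and one at chr8:3754410 near Cd209a matched it over 378 bases at 83.3%. A stretch beside the chromosome 9 cluster, from 3257345 to 3259453, then matched the surroundings of 7 more clusters, at chr3:5860668, chr9:110281329, chr11:109011699, chr13:44869632, chr16:11144050, chr16:57391592 and one on chromosome 18. These matches were 88 to 492 bases long at 71.0% to 89.8% identity, and 57 of the 87 members of the 7 clusters lay inside them. No direct match of these 7 to the left-out copy was found. The clusters at Jarid2, at Cmss1 and on chromosome 18 were also alike, at 97.1% to 98.1% over 256 to 414 bases. None of the 93 members was soft-masked, 79 lay in CpG islands, and their windows had a median of 2 further copies at 80% identity.

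These 93 members had a mean methylation of 11.0%, 19.9%, 7.77% and 7.20%. Both Mixed mice lay above both B6 mice in 84 of the 93, against 8.96% of all autosomal common cytosines. Each of the 84 had Mixed-2 highest, and both Mixed mice lay above both B6 mice in 8 of the 9 clusters. The strain means differed by 7.97 points (exact permutation p = 0.333), by 12.4 without Mixed-1 and by 3.55 without Mixed-2. In the ribosomal copy left out by the rule, the 450 cytosines of the same depth had means of 12.6%, 24.5%, 9.62% and 8.61%, and 380 of them had this same order. The exception among the clusters was the one on chromosome 18, with 7.91%, 22.4%, 12.5% and 8.84%.

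Some of the largest groups of members were of this kind. The cluster of 27 members at chr11:109011699 to chr11:109011984 in an intron of the noncoding gene Gm36876 had cluster means of 13.2%, 22.7%, 8.34% and 6.99%, and a mean coverage of 7086, 7447, 6815 and 6116 reads. It held the member with the lowest p, chr11:109011871, at 25.2%, 38.0%, 9.36% and 7.13% (limma-moderated logistic model, adjusted p = 0.569). Its neighbour chr11:109011909 on the − strand had 19.6%, 35.3%, 6.14% and 5.14%. At chr16:11144050, in an intron of Zc3h7a, 24 members had cluster means of 9.18%, 16.3%, 5.85% and 6.39%. At chr3:5860668, 109373 bp from Gm8797, 16 members had 9.15%, 15.7%, 6.65% and 6.13%. At chr13:44869632, in an intron of Jarid2, a cofactor of Polycomb repressive complex PRC2, 5 members had 16.1%, 28.0%, 11.5% and 11.9% at the greatest scaled coverage of the kind. In each of these clusters Mixed-2 was highest, Mixed-1 next, and the B6 mice lowest and close together.

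The 7 other clusters of low methylation split in the same respect. At chr5:146261012 to chr5:146261295, in an intron of Cdk8, the kinase of the Mediator complex, 12 members averaged 16.4%, 26.3%, 10.2% and 8.98%. At chr11:106066778, by the start of Taco1, which activates translation of a mitochondrial oxidase subunit, 10 members averaged 12.7%, 23.6%, 9.01% and 7.89%. At chr16:91534646, near Gm7860, 4 members averaged 11.0%, 21.0%, 7.25% and 6.21%, and at chr17:36231292, near Gm18604, 5 members averaged 10.6%, 18.6%, 6.91% and 6.13%. In these 4 clusters Mixed-2 was highest, Mixed-1 next and the B6 mice lowest, although no match to the ribosomal copy or to the clusters linked with it was found. That search began matches only in unmasked bases and rested on the chromosome 17 copy, without a complete ribosomal repeat unit. A ribosomal origin was thus not tested. The start of the pseudogene Pisd-ps2 had the same order with values close together, at 14.9%, 15.1%, 14.5% and 13.0% over 4 members. The other two clusters did not keep it. The start of Hjurp, the chaperone that places the centromeric histone CENP-A, had 0.991%, 0.945%, 0.213% and 1.37% over 3 members. The start of the zinc finger gene Zfp978 had 11.7%, 18.05%, 14.5% and 15.1% over 4 members.

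The 82 members in clusters with 1000 or more copies were 97.6% soft-masked, and were on average 81.3%, 81.3%, 82.3% and 82.2% methylated. The 4 mice thus lay within 1 point of each other. None of the 82 lay in a CpG island, but islands were called with soft-masked bases hidden, so this says little of their CpG content. The strain means differed by -0.949 points (exact permutation p = 0.333). Both Mixed mice lay below both B6 mice in 26 members and in 12 of the 20 clusters. They lay above both in 8 members and in 1 cluster. Of all autosomal common cytosines, 7.63% had both Mixed mice below and 8.96% had both above. A pair of families stood out by sequence. One of 8 clusters with 33 members (at Acnat1, Focad, Olfr215, Rhobtb1, Gm40662, Gm36107, Kcnq3 and Gm35781, on 7 chromosomes) was alike over 5124 to 5629 bases at 96.1% to 97.0% identity with the cluster in Acnat1. The other joined 10 clusters of this kind with 39 members by their windows at 80% identity, and it also took in a cluster in Sema6d with a median of 792 copies.

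The same position in different copies mostly had similar methylation. Members whose 101-base windows were alike in at least 85 bases formed 18 positions that recurred in 2 or more clusters, with 55 members in all. Within such a position the mean methylation of the copies spanned a median of 1.55 points. Over the 48 clusters of 2 or more members, of every kind, the members of a single cluster spanned a median of 11.8 points. The 2 ranges differ in their clusters and in the number of values, so they are not directly comparable. The widest position spanned 11.1 points, from 78.6% in Kcnq3 at chr15:66057444 to 89.7% in Rhobtb1 at chr10:69197024. One position was measured in 6 clusters on 5 chromosomes and had 91.1% to 93.4%. A neighbouring position of the same copies had 76.0% to 81.1% over 5 clusters. For those 5 copies the log2 ratio of scaled coverage, Mixed over B6, ran from 0.55 to 2.94. Reads from one copy may have been placed on another, and the part of this in the likeness was not tested.

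**Figure D3:**
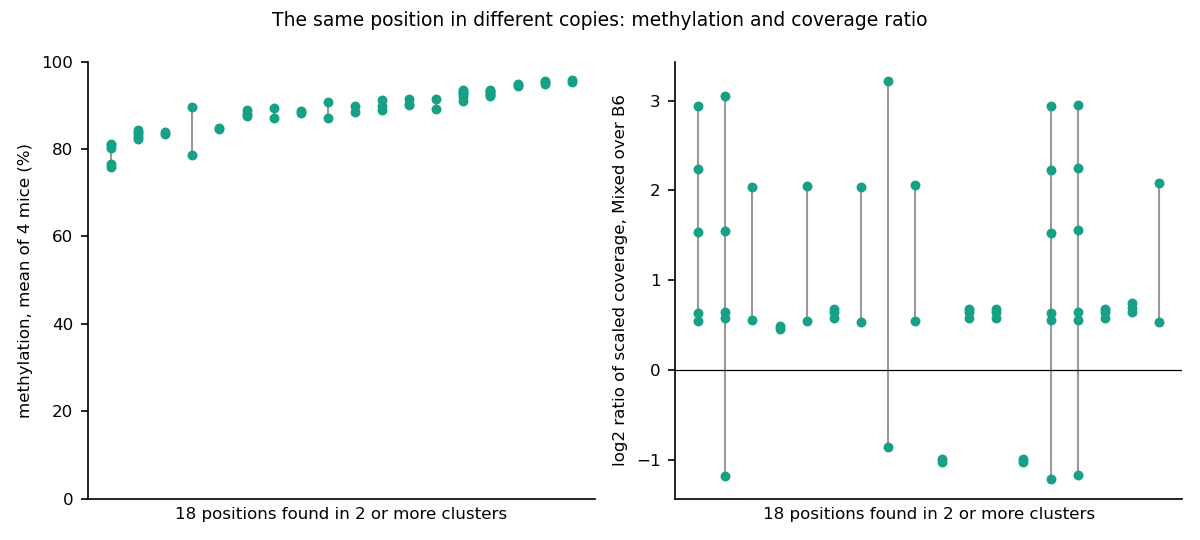
For 18 positions that recur in 2 or more clusters (x axis, ordered by methylation), the left panel gives the methylation in percent of each copy as the mean of 4 mice and the right panel gives the log2 ratio of its scaled coverage, Mixed over B6. Points are copies and grey lines join them. Methylation spans a median of 1.55 points and at most 11.1 while coverage ratios of the copies lie between -1.21 and 3.22.

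Single cytosines with few C reads sat inside highly methylated clusters. A read from a copy with T at that base counts as unmethylated, and the part of this in the low values was not tested. In 10 clusters with a member over 70%, 1 member was under 15% in the mean of the mice, 9 of these 10 being soft-masked. In Acnat1, an acyltransferase gene of the liver, chr4:49466574 had 1.83%, 0.307%, 0.000% and 0.654% while chr4:49466601 had 92.2%, 93.9%, 93.7% and 93.9%. In Exoc6b, a subunit of the exocyst, chr6:84713560 had 1.76%, 0.915%, 2.19% and 1.17% while chr6:84713564 had 90.9%, 88.2%, 86.7% and 90.8%. At chr12:19245221 in Gm40843 the values were 0.786%, 0.547%, 0.643% and 0.777%. The 4 mice had the same low value at each of them within 6.64 points. Of the 5 clusters with 3 or more members and a mean nearest 50%, 4 (in Gm40843, Kcnq3, Exoc6b and Acnat1) were mixtures of such a low cytosine and high ones. The one at chr12:20234105 was intermediate at most of its cytosines in 3 of the 4 mice.

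The cluster of 7 members at chr12:20234105, 6539 bp from Gm32719, had the largest gaps between strains. Its means were 89.1%, 62.9%, 57.6% and 57.6%, so that Mixed-1 stood alone and the gap of 18.4 points shrank to 5.36 without it. The top cytosine, chr12:20234124, had 304, 456, 431 and 432 reads and 95.1%, 61.0%, 52.2% and 52.3% methylation (limma-moderated logistic model, adjusted p = 1). Windows in this cluster had a median of 9 further copies at 80% identity. A related pair of clusters fell the other way in the same mouse. At chr12:19245175 in Gm40843 the 3 members averaged 47.9%, 57.9%, 60.1% and 59.7%, and at chr1:171483019, 18426 bp from F11r, the 2 members averaged 71.3%, 86.2%, 92.0% and 91.1%. The surroundings of this pair matched over 2712 bases at 84.9% identity. Mixed-1 also had the lowest mean, 60.0%, at chr13:119488960 by the start of Tmem267, against 89.3%, 80.2% and 78.1%.

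**Figure D4:**
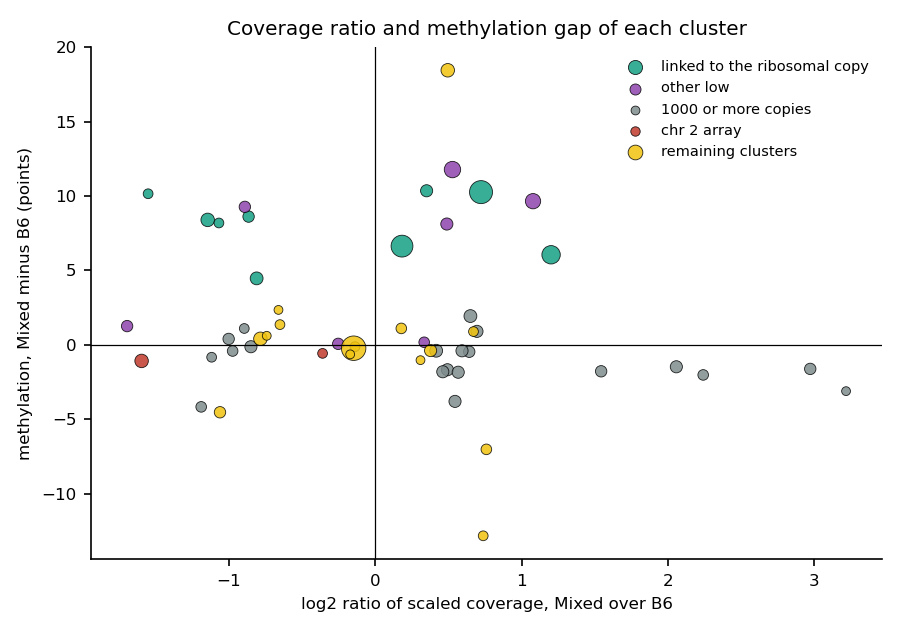
Difference of methylation in points, Mixed minus B6 (y axis), against the log2 ratio of scaled coverage, Mixed over B6 (x axis), for the 53 clusters, coloured by kind and with larger points for more members. Gaps reach 18.4 and -12.8 points in the remaining clusters, and the 5 coverage ratios above 1.5 belong to clusters of 1000 or more copies whose gaps are between -3.11 and -1.47 points.

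Coverage was compared after division by each mouse's median over autosomal common cytosines, which gives a scaled coverage. The median log2 ratio, Mixed over B6, was 0.36 over the members and ran from -2.49 to 3.22, against a median of 0.12 over all sites. The strains did not overlap in scaled coverage in 185 members with Mixed higher (62.1%, against 36.2% of all sites) and in 84 with Mixed lower (28.2%, against 26.1%). Since coverage was the rule, nothing is read from these shares. Ratios over 2-fold in either direction occurred in 99 members (33.2%) between strains, in 5 between Mixed-1 and Mixed-2, and in 0 between B6-1 and B6-2. Over all sites these shares were 14.1%, 3.65% and 2.42%. By cluster, 49 of 53 did not overlap, and 16 of these differed by over 2-fold, 7 with Mixed higher and 9 with Mixed lower.

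By cluster means, the greatest excesses in the Mixed mice were at clusters of 1000 or more copies. At chr10:35351226, the sole member there, 2095 and 1843 reads in the Mixed mice stood against 321 and 303 in the B6 mice, a 9.29-fold ratio of scaled coverage. At chr13:6884170, 4 members averaged 1854, 2787, 436 and 425 reads (7.84-fold). In an intron of Focad at chr4:88376341, 3 members averaged 953, 1454, 419 and 324 reads (4.72-fold), and at chr2:149489794, 79516 bp from Cst10, 5 members averaged 946, 1272, 426 and 353 reads (4.16-fold). The order of the strains was the same in each, with methylation differences, Mixed minus B6, of -3.11 to -1.47 points. The opposite was found for the related copy near Olfr215 at chr6:116578907, where 326, 489, 1551 and 1165 reads gave a 2.28-fold excess in B6 mice.

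The greatest excess of a cluster mean in the B6 mice was at the pericentromeric start of Pisd-ps2, a pseudogene of the phosphatidylserine decarboxylase gene, at chr17:3084097. Its 4 members averaged 444, 352, 2312 and 1514 reads (3.24-fold), and methylation was 13.0% to 15.1% in all mice. Single members of the chromosome 2 array went further, down to a log2 ratio of -2.49 at chr2:98666262. The member in Pisd-ps1 at chr11:3127214 had 1008, 696, 2098 and 1897 reads (1.58-fold) and 92.5%, 91.4%, 88.4% and 90.7% methylation. Its surroundings matched a stretch beside the Pisd-ps2 cluster over 4158 bases at 97.6% identity. That stretch did not hold the Pisd-ps2 members, so the cytosines are not counterparts. Clusters linked to the ribosomal copy fell on both sides, with 4 higher in Mixed and 5 higher in B6 mice, from 2.30-fold higher in Mixed mice at chr3:5860668 to 2.93-fold higher in B6 mice at chr9:110281329. Methylation was higher in the Mixed mice in both cases.

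**Figure D5:**
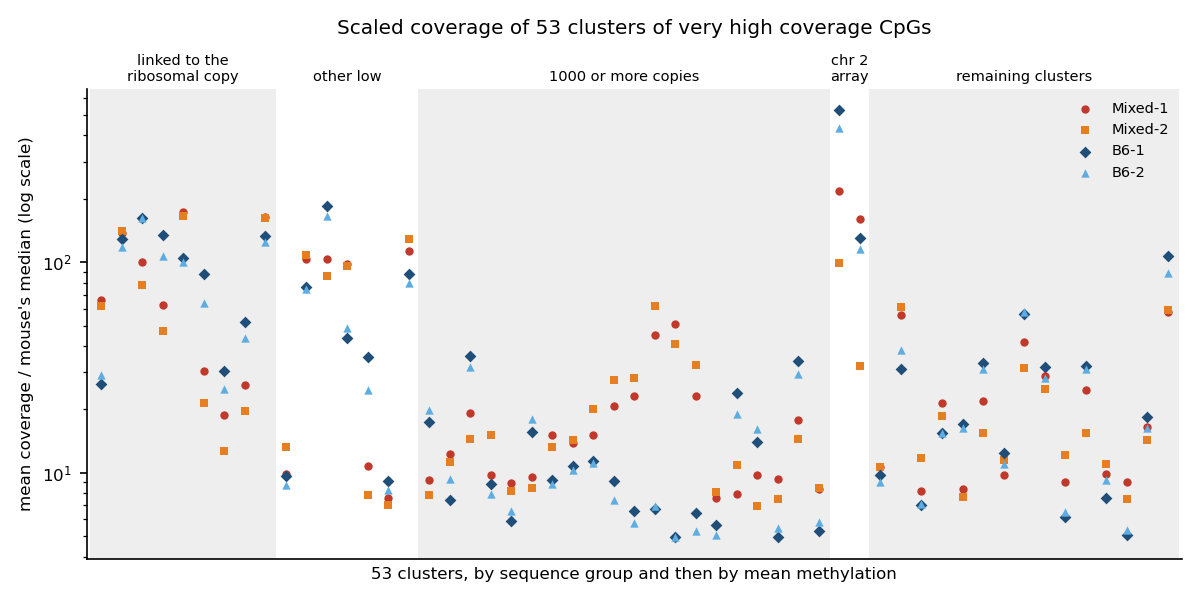
Mean coverage of each of the 53 clusters divided by the mouse's median coverage (y axis, log scale), 1 point per mouse, with clusters in the same order as by methylation. The larger cluster of the chromosome 2 array reaches 527 times the median in B6-1, where its member chr2:98666504 stands at 3479 times. Several clusters of 1000 or more copies have both Mixed mice several times above both B6 mice.

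The array on chromosome 2 had the deepest member and the widest spread of coverage within a strain. Its 9 members lay between 98662795 and 98667167 in intergenic sequence, in windows that held a median of 35.6% G and C against 66.3% for all sites, and the surroundings of its clusters recurred nearby with a median of 6 copies within 5 kb in the larger one. They were 85.4%, 82.8%, 84.8% and 85.4% methylated in the mean. At chr2:98666504, the deepest member of all, methylation was 93.4%, 95.1%, 95.4% and 95.6%. Its scaled coverage averaged 1927 over the mice, against 33.0 to 135 for the other members of the array. The window of this cytosine had no further copy at 80% identity. At chr2:98662856 on the + strand the reads numbered 10256 in Mixed-1 but 809, 1671 and 2486 in the other mice, with 90.5%, 88.9%, 89.4% and 89.0% methylation. Mixed-1 was also the deepest mouse at chr2:98667149, with 12840 reads against 917, 1581 and 2757. Methylation at these members differed little between the Mixed mice, but it did differ at neighbours of the second. There chr2:98667107 had 68.8%, 59.9%, 60.4% and 63.4%, and chr2:98667108 had 69.7%, 53.8%, 62.4% and 66.2%.

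Of the remaining 15 clusters most were highly methylated, an exception being chr6:3182937, 132936 bp from the first sequenced base, where 3 members averaged 29.5%, 28.8%, 28.6% and 27.5%. The largest cluster of all, with 31 members, lay at chr11:3193348 to chr11:3193628 at the start of a transcript of Sfi1, a centrosomal protein gene that stands 93347 bp from the first sequenced base. It had 81.6%, 86.2%, 85.7% and 82.5% methylation at 1183, 1129, 2063 and 1711 reads, although it was in a CpG island, and its strains overlapped in both. Eef2, the elongation factor that moves the ribosome along mRNA, had 2 members near its start at chr10:81178122 with 82.2%, 81.4%, 80.4% and 80.5%. Their surroundings matched a second Sfi1 cluster, at chr11:3150593, over 183 bases at 95.6% identity, and that cluster's 7 members averaged 79.5%, 78.7%, 78.6% and 78.8%. In E030030I06Rik at chr10:22142775 the sole member had 97.5%, 97.4%, 96.9% and 96.8%.

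Both strands of a CpG were members in 40 CpGs (80 members). Their strands differed by a median of 2.31, 2.15, 0.643 and 0.841 points. Reads with a base other than C or T were rare, at a mean of 0.0486%, 0.0503%, 0.0453% and 0.0432% of the reads of a member. That was 0.0322 points above the other autosomal common cytosines on average, and above them in all 4 mice (two-sided exact sign-flip permutation p = 0.125, the smallest it can give). The chromosome 2 array gave most of it, with 1.19%, 1.35%, 1.10% and 1.15%, while the members linked to the ribosomal copy had 0.00653% to 0.0110%.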

How the data were processed

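Sites were read from the deposited tables of 4 mice, in which the authors gave the coverage of each CpG cytosine, by strand, as a count of at least 10 reads, with the percent that were C and that were T. The study mapped reads of 50 cycles to mm10 with BSMAP and counted unique best hits, while the submitters' processing notes name Bismark and SAMtools; how reads with several equal placements were handled bears on every coverage here and is not given in the sources used here. The percent C times the coverage, rounded, gave methylated reads. The members and lists were chosen with earlier results of these data known. Every site lay on a CpG of GRCm38, annotated with RefSeq. Strains were compared with a logistic model per site over all autosomal common cytosines (limma 3.58.1 under R 4.3.3; Benjamini-Hochberg), and overdispersion was moderated to a trend on coverage, estimated at sites with 10 to 90% methylated reads and kept at 1 or above. The trend and those bounds were set after the model was tested on simulated data. Means were compared with exact permutation tests over mice, which are separate animals by the labels. Copies came from blastn 2.17.0+. Clusters were named by rule as the 5 with most members, highest scaled coverage, largest coverage ratio or mean nearest 50%, and all others named were chosen after their values were seen. Alternatives were other coverage minimums, chaining, scaling, weighting, bounds, tests and matches, the replicate block, and leaving out each mouse. Python 3.11.15 was used.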

Additional observations from a re-analysis of the deposited data

How the results depend on the processing

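Of 94 alternatives to the values reported, 71 kept their direction and side of the threshold or stayed within the replicate spread. Another 18 moved, 3 gave a stronger result and 2 were reversed. Fisher's exact test on pooled reads called 1 member, and leaving out 1 mouse called 0 to 5, with 5 at chr12:20234105 and nearby without Mixed-2 and 2 at chr11:109011871 and chr11:109011909 without Mixed-1; with 1 mouse left in a strain, that mouse is assumed to vary like the others. Leaving out any 1 mouse also raised the number of calls among all autosomal common cytosines. The member counts of those fits are thus not comparable with that of the main fit. The mean difference between strains was reversed with reads pooled (-4.78 points). It was also reversed in the clusters of 1000 or more copies (-0.949 points, chosen after seeing the data). Leaving out 1 mouse gave a mean difference of 1.35 to 5.65 points. Without the coverage trend, added after seeing the data, 0 members were called, but 148 (49.7%, against 2.04% of all sites) had an unadjusted p under 0.05. In that fit 37 had an adjusted p under 0.01 at a smaller gap, with no share of all sites given beside them.

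Shares followed the membership and weighting. The hypomethylated share of 42.0% became 54.6% at a coverage of 500, 25.5% over clusters, 60.7% with reads pooled and 24.2% at bounds of 10% and 90%. The intermediate share of 16.9% became 31.1% over clusters and 51.8% at the wider bounds. The hypermethylated share of 41.0% became 45.2% and 31.0% at coverages of 200 and 500, 43.4% over clusters, 24.8% with reads pooled and 24.0% at the wider bounds. At a coverage of 500 the soft-masked share was 17.7% and the island share 62.1%. At the main minimum, islands called with soft-masked bases kept held 68.1% of members, with no share over all sites beside it. Promoters upstream only held 9.73%. Clusters numbered 81 at a coverage of 200 and 29 at 500. Matches of 98% over 98% gave 97 members with copies.

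With the replicate number as a replicate block, 0 members were called and the mean difference stayed 3.50 points. The numbers pair the mice by label alone, since deviations of same-numbered mice correlated by 0.000622 over 146610 intermediate sites and by -0.244 over the members. Of 18 clusters named by rule, 15 kept the sign of their gap without each mouse. The cause of these changes was not tested. Depth does not limit single members, but 2 mice a strain limit every strain comparison.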

Other observations

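Some cytosines passed the coverage minimum in 1 strain alone. With at least 300 reads in both Mixed mice and fewer in both B6 mice there were 34, in 11 clusters, and 33 of them (97.1%) were soft-masked. Their median coverage was 547.5, 529.5, 116.5 and 109.5 reads, and their mean methylation was 82.5%, 82.1%, 86.7% and 86.0%. With at least 300 reads in both B6 mice and fewer in both Mixed mice there were 155, in 47 clusters, of which 39.4% were soft-masked and 44.5% lay in CpG islands. The B6 libraries were sequenced more deeply, so this second count is not comparable with the first.

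Outside the autosomes, 11 cytosines of the mitochondrial genome, 12 of chromosome X and 7 of chromosome Y had at least 300 reads in each mouse. The mitochondrial cytosines had median coverages of 24052, 13184, 23083 and 21447 reads and a mean methylation of 0.359%, 0.196%, 0.476% and 0.333%. Those of chromosome X averaged 71.2%, 71.6%, 72.8% and 73.3%, and those of chromosome Y 81.1%, 78.4%, 79.4% and 77.2%.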
